A study of Mus musculus with 15 samples.

Results

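The Slc25 genes encode the mitochondrial carrier family, the proteins that move metabolites, nucleotides and cofactors across the inner mitochondrial membrane. Members were taken as every row whose gene name is Slc25a followed by a number. This gave 47 of the 56748 genes in the tables. The rule uses the name alone and no measured value. Counts were high enough for a test in 38 of the 47, among 15619 genes tested in all. A carrier is built from repeats of a short membrane-spanning module, and most members swap one solute for another. Activated T cells are known to depend on mitochondria for ATP, aspartate, folate-bound one-carbon units, NAD and iron-sulfur clusters, each of which needs a carrier on its route into or out of the matrix.

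The libraries, 15 in all, were of cultured mouse T helper 2 (Th2) cells, the helper T cells that make interleukins 4, 5 and 13. Splenic naive CD4+ T cells of female mice were primed over 3 days with anti-CD3ε (5 µg/ml), anti-CD28 (1 µg/ml), anti-interferon gamma (10 µg/ml), interleukin 2 (10 ng/ml) and interleukin 4 (40 ng/ml), then spent 3 days with both interleukins at 20 ng/ml. Some were stimulated again from day 5, for 24 h, with anti-CD3ε on the plate (3 µg/ml) and anti-CD28 in solution (2 µg/ml). Control cells were Asb2fl/fl, with floxed Asb2 alleles and no Cre, and cKO cells were VEC-Cre;Asb2fl/fl, the same alleles with Cre driven by the VE-cadherin promoter, which is known from endothelium and from early blood-forming cells. ASB2 is the substrate-recognition subunit of a cullin E3 ubiquitin ligase. Control cells gave 3 libraries without and 5 with stimulation, and cKO cells gave 3 without and 4 with it. Separate animals per library are not stated in the labels, so p-values speak of the spread among these libraries alone, which may be technical. The design asks how renewed stimulation changes RNA in each genotype and how loss of ASB2 changes it in each state.

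The libraries held 17.1 to 24.2 M estimated counts each. Asb2 RNA was 36.7 ± 12.2 CPM (counts scaled to a common library size, mean ± SD) in non-stimulated control cells and 19.2 ± 5.62 CPM in non-stimulated cKO cells, a log2 difference of -0.94 ± 0.21 that was not called (edgeR adjusted p = 1). These groups of libraries did not overlap, and the unadjusted p was 0.000326 by edgeR. Asb2 RNA was 33.5 ± 2.72 CPM in stimulated control and 9.49 ± 0.115 CPM in stimulated cKO cells, a log2 difference of -1.82 ± 0.18 (SE, edgeR adjusted p = 0.000337). Defining Th2 and CD4 T cell genes were present in every library, with Gata3 between 545 and 827 CPM and Cd4 between 342 and 481 CPM. The interleukin genes were low without stimulation. Il4 stood at 5.49 to 14.97 CPM in non-stimulated and 84.2 to 181 CPM in stimulated libraries. Il5 stood at 1.54 to 4.37 and 766 to 1512 CPM, and Il13 at 11.2 to 40.6 and 1390 to 2079 CPM. Cd3e went the other way, from 315 to 405 CPM without to 188 to 246 CPM with stimulation. The ranges of Cd3g and Ccr4 overlapped between the states. The summed level of 6 erythroid markers was at most 0.194 CPM, with 5 of the 6 at 0 in every library. The third stimulated cKO library stood apart: 9.43% of its counts came from mitochondrially encoded genes, against 4.36% to 6.24% in the other libraries. Results for stimulated cKO cells are therefore also given without it where they differ.

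The family summed to 956 ± 20.6 TPM (the authors' transcript measure, scaled for length and library) in non-stimulated control cells (SD, n = 3). It summed to 1162 ± 81.4 TPM in stimulated control cells (n = 5), 1078 ± 35.4 in non-stimulated cKO cells (n = 3) and 1149 ± 266 in stimulated cKO cells (n = 4). The last spread came from the third library, at 765 TPM, since the other 3 held 1177 to 1339 TPM. A single gene, Slc25a5, made up 33.2% ± 0.929 of the family total in non-stimulated control cells and 31.5% ± 2.20 after stimulation. Slc25a5 encodes adenine nucleotide translocase ANT2, the ADP/ATP exchanger typical of dividing cells. It stood at 318 ± 13.3 TPM in non-stimulated control cells. Slc25a3, the phosphate carrier that supplies ATP synthase, came second in all 4 groups, at 142 ± 9.37 TPM in non-stimulated control cells. In that group neither range overlapped with that of the next gene. The third was the pyrimidine nucleotide carrier Slc25a36 at 51.7 ± 1.31 TPM, whose range also stayed clear of the next. From the fourth place, Slc25a4, to the tenth, Slc25a24, each gene's range overlapped with that of its neighbour in the order.

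**Figure D1:**
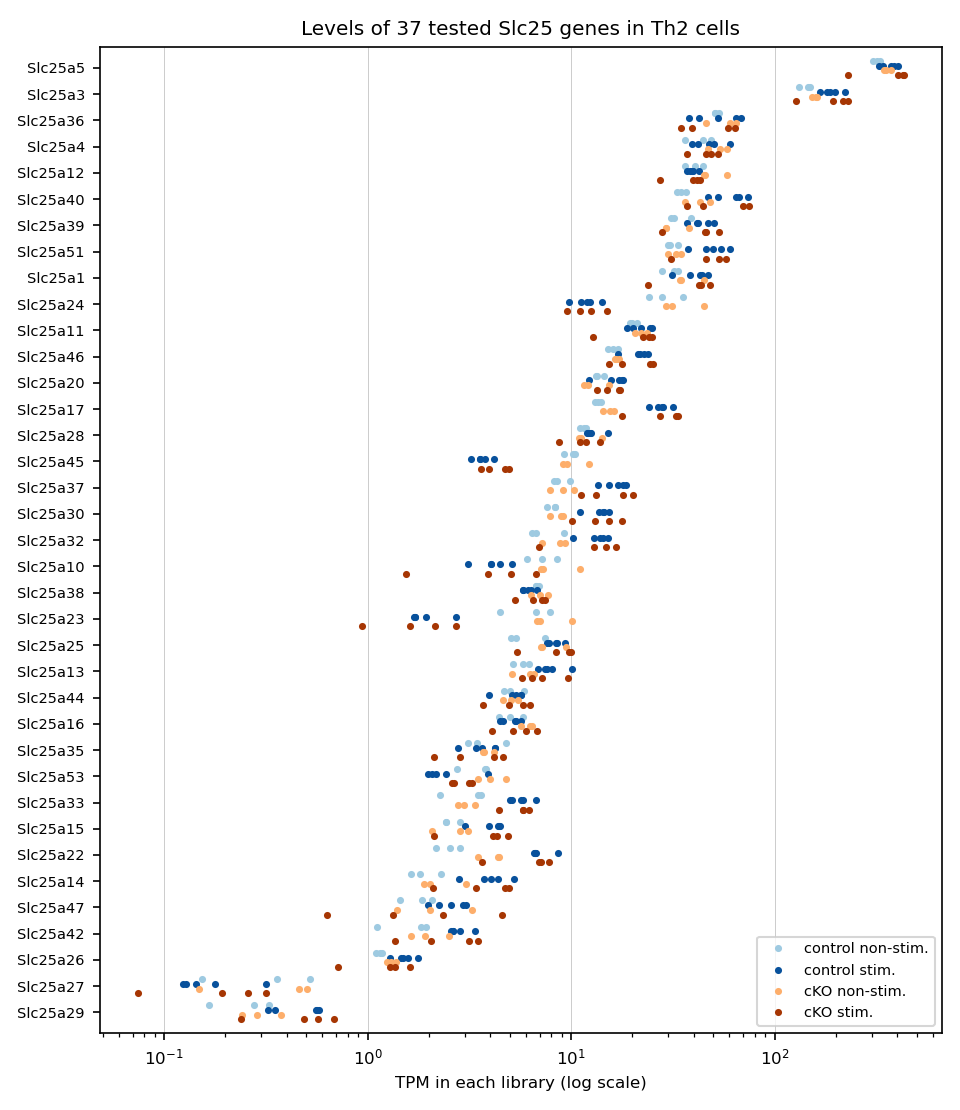
TPM on a log axis for 37 of the 38 tested Slc25 genes, 1 point per library, ordered by the mean in non-stimulated control cells; colours mark genotype and stimulation. Slc25a5 and Slc25a3 lie above all other members in every group, and the stimulated points of Slc25a23, Slc25a24 and Slc25a45 lie to the left of the non-stimulated ones.

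The 9 members that were not tested had few or no counts. Slc25a18, Slc25a21 and Slc25a54 had 0 counts in all 15 libraries. Slc25a31, the germ-line ADP/ATP carrier, had at most 2 counts in any library, Slc25a41 also 2 and Slc25a48 at most 1. Slc25a34, Slc25a2 and Slc25a43 reached 6, 10 and 11 counts. Of the pair of glutamate carriers, Slc25a22 was therefore the only one with counts, as Slc25a18 had none.

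Stimulation changed members of the family in both directions, with more rises than falls. In control cells 15 of the 38 tested members were called higher and 6 lower (edgeR adjusted p under 0.05). These 21 are 55.3% of the tested members, beside 50.6% of all genes tested. By direction, 39.5% of members were higher and 15.8% lower, beside 25.4% higher and 25.2% lower of all genes. The members' median log2 fold change was 0.15, against 0.00 for all genes. In cKO cells 15 members were called higher and 5 lower, which is 52.6% beside 53.8% of all genes, with 26.7% of all genes higher and 27.1% lower. The median there was 0.11, against -0.01 for all genes. In control cells 4 called members changed at least 2-fold (17.9% of all genes), and in cKO cells 3 (20.3% of all genes). The libraries did not overlap between the stimulated and non-stimulated groups for 20 of 38 members in control cells (47.9% of all genes) and for 17 in cKO cells (54.1% of all genes). In bulk RNA, fewer cells of a type and less RNA per cell cannot be told apart.

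Calls were largely shared between genotypes. Among the 38, 13 were called higher in both and 5 lower in both, 18 members beside 43.5% of all genes called in both in the same direction. Slc25a42, Slc25a14 and Slc25a27 were called in control cells alone, and Slc25a29 and Slc25a20 in cKO cells alone, and no member was called in opposite directions. The difference between the genotypes' responses was tested and none of the 38 passed. On the deposited TPM, with limma on log2(TPM + 0.1), 12 members were called higher and 3 lower in control cells, and 5 higher and 4 lower in cKO cells. Among the calls lost there were those of Slc25a10, Slc25a27, Slc25a15, Slc25a13, Slc25a46 and Slc25a53 in control cells, and those of Slc25a3, Slc25a32, Slc25a15, Slc25a29, Slc25a13, Slc25a22, Slc25a20, Slc25a40, Slc25a46 and Slc25a53 in cKO cells. Losses given below beside single members are those from leaving out a library, unless another setting is named. Without the third stimulated cKO library, edgeR called 18 members higher and 5 lower in place of 15 and 5 in cKO cells.

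**Figure D2:**
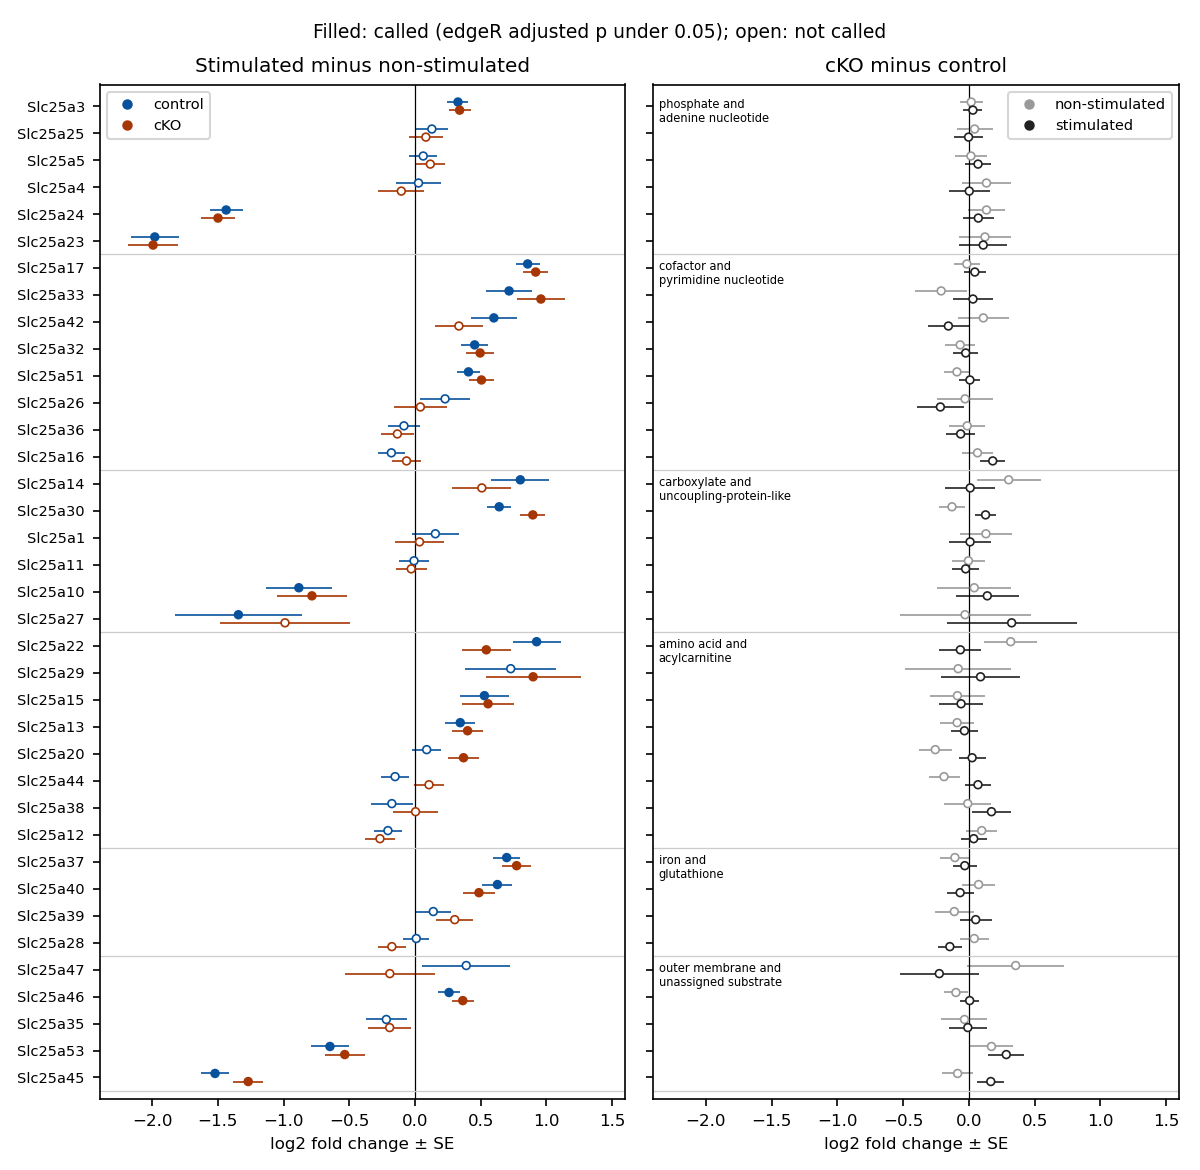
Log2 fold changes with SE (edgeR) of 37 of the 38 tested members, grouped by role; left, stimulated minus non-stimulated cells of each genotype; right, cKO minus control in each state; filled points passed an adjusted p of 0.05. In the left panel the blue and red points of a member lie near each other, and in the right panel no point is filled.

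Carriers of phosphate and adenine nucleotides set the supply of ADP, ATP and phosphate in the matrix. Slc25a3 and 2 of the ATP-Mg/phosphate carriers were called, and the ADP/ATP carriers were not. The called genes are 3 of 6 tested members in each genotype (50%), beside 50.6% of all genes in control and 53.8% in cKO cells. Slc25a3 read 214, 224 and 251 CPM in non-stimulated and 282, 292, 283, 299 and 284 CPM in stimulated control libraries. All stimulated values lay above all non-stimulated ones, with a log2 fold change of 0.33 ± 0.08 (edgeR adjusted p = 0.00238). In cKO cells the change was 0.34 ± 0.08 (edgeR adjusted p = 0.0023).

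Slc25a24 and Slc25a23 encode carriers with calcium-binding domains on the outer side that exchange ATP-Mg for phosphate when cytosolic calcium rises. Slc25a24 read 99.3, 118 and 89.9 CPM without stimulation and 31.9, 38.6, 39.9, 41.4 and 37.5 CPM after it in control cells. Its cKO libraries read 101, 93.9 and 142 CPM and, stimulated, 39.5, 41.8, 42.1 and 35.6 CPM. The highest stimulated library of either genotype lay below the lowest non-stimulated one, and the fall was 2.71-fold in control (-1.44 ± 0.12 log2, edgeR adjusted p = 4.81e-08) and 2.83-fold in cKO cells (-1.50 ± 0.13, edgeR adjusted p = 6.87e-08). Slc25a23 had the largest change of any member. It read 21.8, 26.2 and 16.2 CPM in non-stimulated and 5.58, 5.47, 5.6, 4.85 and 5.55 CPM in stimulated control cells. The cKO libraries held 27, 21.9 and 20.9 and, stimulated, 7.1, 4.55, 4.13 and 7.53 CPM. The groups did not overlap in either genotype, and the log2 changes were -1.98 ± 0.18 (edgeR adjusted p = 9.22e-08) and -1.99 ± 0.19 (edgeR adjusted p = 1.84e-07). Slc25a23 overlaps the protein-coding gene Crb3 on the other strand in the GENCODE M21 annotation, and how the counting treated strand is not given in the sources used here, so its reads may include reads of that gene. The same holds for the members named below with such an overlap, for Slc25a11, Slc25a26 and Slc25a35, none of which was called, and for Slc25a10, Slc25a33, Slc25a36 and Slc25a37, which overlap annotated antisense genes. Some members also overlap genes on their own strand, which a strand setting cannot separate. These are Slc25a37 with Gm20236, Slc25a16 with a processed pseudogene, and Slc25a3, Slc25a14, Slc25a39, Slc25a47 and Slc25a51 with small RNA genes.

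Slc25a25, the third calcium-regulated carrier, did not follow. Its control libraries read 18, 18.9 and 14.2 CPM before and 19.9, 17.4, 20.6, 18.1 and 17 CPM after stimulation, which overlap. The cKO libraries read 18.2, 14.6 and 19.7 and 20.4, 19.5, 17.4 and 16.9 CPM, again overlapping. The log2 changes were 0.13 ± 0.12 and 0.08 ± 0.13, and neither was called (edgeR adjusted p = 0.411 and 0.612). In TPM the control libraries were just apart, at 5.06 to 7.46 before and 7.64 to 9.32 after stimulation, and the cKO libraries overlapped. No alternative called the change in either genotype. Slc25a25 overlaps Naif1 on the other strand.

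The ADP/ATP carriers themselves were not called. Slc25a5 read 370, 341 and 351 CPM in non-stimulated and 423, 382, 390, 348 and 305 CPM in stimulated control cells, with overlapping ranges. In cKO libraries it read 371, 347 and 355 and 453, 392, 323 and 383 CPM. Slc25a4, which encodes ANT1, the isoform of muscle and heart, read 92.7, 80.0 and 70.9 CPM in non-stimulated and 107, 82.8, 97.2, 63.9 and 62.3 CPM in stimulated control cells. Its cKO libraries read 90.5, 79 and 97.7 and 98.4, 74.9, 88.7 and 69.5 CPM. The 4 log2 changes of these genes lay between -0.10 and 0.12, each with an SE of at most 0.18. By TPM, Slc25a5 made up 88.0% ± 1.13 of the ADP/ATP carrier RNA in non-stimulated and 88.4% ± 1.35 in stimulated control cells. Processed copies of Slc25a5 exist in the genome, and how the counting shared reads with them is not given in the sources used here.

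Carriers of cofactors and pyrimidine nucleotides, the role with the most tested members, held the most rises of any role in control cells. Of 9 tested members 6 were called higher and 0 lower, beside 25.4% higher and 25.2% lower of all genes. In cKO cells 5 were higher and 0 lower, as many as among the carriers of amino acids and acylcarnitine. The shares of all genes there were 26.7% higher and 27.1% lower. Slc25a17, a carrier of coenzyme A, FAD and NAD in the peroxisome membrane rather than the mitochondrion, read 22.8, 21.3 and 22.3 CPM in non-stimulated and 43.5, 41.1, 38.9, 41 and 36.1 CPM in stimulated control cells. Its cKO libraries read 22.5, 20.6 and 22.5 and 44.9, 42.6, 36 and 41.8 CPM. Values within each group lay close together and the groups were far apart, a rise of 1.81-fold in control (0.86 ± 0.09 log2, edgeR adjusted p = 5.76e-07) and 1.89-fold in cKO cells (0.92 ± 0.10, edgeR adjusted p = 4.13e-07).

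Slc25a33 carries pyrimidine nucleotides into mitochondria, where they feed RNA and DNA synthesis. Its RNA read 6.53, 4.03 and 6.92 CPM in non-stimulated and 11.8, 9.77, 9.75, 7.58 and 9.07 CPM in stimulated control cells. The cKO libraries read 5.55, 4.96 and 4.63 and 10.8, 8.77, 10.4 and 9.25 CPM. No stimulated library of either genotype fell below a non-stimulated one of that genotype, and the log2 changes were 0.72 ± 0.18 (edgeR adjusted p = 0.00248) and 0.96 ± 0.19 (edgeR adjusted p = 0.000304). The other pyrimidine nucleotide carrier, Slc25a36, was more abundant and was not called. It read 139, 133 and 150 CPM before and 117, 138, 111, 140 and 157 CPM after stimulation of control cells. The cKO values were 151, 153 and 114 and 107, 132, 131 and 138 CPM, and the ranges overlapped in both genotypes.

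Slc25a42 brings coenzyme A into the matrix. Control libraries read 3.8, 4.81 and 5.02 CPM without and 7.29, 6.53, 7.25, 6.02 and 7.4 CPM with stimulation, with no overlap, a log2 change of 0.60 ± 0.17 (edgeR adjusted p = 0.00784). In cKO cells it read 4.63, 5.81 and 4.31 and 6.13, 7.59, 4.52 and 6.4 CPM, which overlapped, and the change of 0.33 ± 0.18 was not called (edgeR adjusted p = 0.127). The call in control cells was lost without the first non-stimulated library (0.49, edgeR adjusted p = 0.0527). Without the third stimulated cKO library the change in cKO cells was called (0.46, edgeR adjusted p = 0.0318), and so it was with limma-voom (0.48, limma-voom adjusted p = 0.0177).

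Slc25a51 and Slc25a32 rose by less. Slc25a51, the NAD carrier, went from 99.3 ± 10.4 to 132 ± 11.3 CPM in control cells, a log2 change of 0.41 ± 0.09. For Slc25a32, the folate and FAD carrier, the means were 27.9 ± 4.58 and 38.2 ± 1.82 CPM, a change of 0.45 ± 0.10. Both were called in cKO cells too, with log2 changes of 0.51 and 0.50, and in neither gene did the groups overlap in either genotype. Slc25a16 and the S-adenosylmethionine carrier Slc25a26 were not called in either genotype, with log2 changes between -0.18 and 0.23.

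Carboxylate carriers and the carriers resembling uncoupling proteins held both rises and falls. The citrate carrier Slc25a1 and the oxoglutarate carrier Slc25a11 were not called, with log2 changes in control cells of 0.15 ± 0.18 and -0.01 ± 0.11. Slc25a10, which exchanges malate or succinate for phosphate, read 12.5, 11.9 and 10.1 CPM without and 6.22, 6.68, 6.9, 6.75 and 4.57 CPM with stimulation in control cells. Its cKO libraries read 14.5, 11.3 and 9.71 and 11.3, 6.89, 3.54 and 5.54 CPM. The control groups were separate, while in cKO cells the first stimulated library lay among the non-stimulated values. The log2 changes were -0.88 ± 0.25 (edgeR adjusted p = 0.00764) and -0.78 ± 0.27 (edgeR adjusted p = 0.0193). The cKO call was lost without the first non-stimulated cKO library (-0.61, edgeR adjusted p = 0.103) and without the fourth stimulated one (-0.67, edgeR adjusted p = 0.0642).

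Slc25a30 encodes a kidney mitochondrial carrier related to the uncoupling proteins. In control cells it read 26.9, 25 and 31.2 CPM before and 48.1, 42.9, 42.2, 41.8 and 41.3 CPM after stimulation. The cKO libraries read 24.5, 26.9 and 24.7 and 44.9, 46.2, 47.1 and 50.8 CPM. Both genotypes rose without overlap, by 1.56-fold (0.64 ± 0.09 log2, edgeR adjusted p = 1.36e-05) and 1.86-fold (0.90 ± 0.09, edgeR adjusted p = 5.07e-07). Slc25a14 and Slc25a27, uncoupling-protein-like carriers best known from brain, were scarce. Slc25a14 rose from 2.3 ± 0.137 to 4.01 ± 0.953 CPM in control cells (log2 0.80 ± 0.22, edgeR adjusted p = 0.00547). The change of 0.51 in cKO cells was not called (edgeR adjusted p = 0.0633). That change was called without the third stimulated (0.58, edgeR adjusted p = 0.0455) or the third non-stimulated cKO library (0.75, edgeR adjusted p = 0.0196). Leaving out the first or the second stimulated control library also gave a call (edgeR adjusted p = 0.0457 and 0.0451), as did limma-voom (limma-voom adjusted p = 0.0176). Slc25a27 fell from 0.824 ± 0.314 to 0.314 ± 0.148 CPM in control cells (log2 -1.34 ± 0.48, edgeR adjusted p = 0.0274). Its stimulated control libraries held 3 to 11 counts each, and the call was lost when any of 4 control libraries was left out, with adjusted p from 0.0543 to 0.131.

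Carriers of amino acids and acylcarnitine rose or did not pass: 3 of 8 tested members were called higher in control cells and 5 in cKO cells, and 0 were called lower in either. Of all genes 25.4% were higher and 25.2% lower in control cells, and 26.7% and 27.1% in cKO cells. Slc25a22, the glutamate carrier, had the largest rise of any member in control cells. It read 7.65, 6.05 and 8.35 CPM in non-stimulated and 14.8, 14, 14.9, 13.3 and 12.9 CPM in stimulated control cells. In cKO cells it read 8.6, 9.34 and 9.57 and 16.8, 15, 8.0 and 13.4 CPM. The control groups stood well apart, whereas the third stimulated cKO library, the one rich in mitochondrial RNA, lay below all 3 non-stimulated cKO libraries. Log2 changes were 0.92 ± 0.18 (edgeR adjusted p = 0.000374) and 0.54 ± 0.19 (edgeR adjusted p = 0.0197). The cKO call was lost without the first non-stimulated cKO library (0.50, edgeR adjusted p = 0.0679) and without the first stimulated one (0.41, edgeR adjusted p = 0.0700).

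Slc25a15 is the ornithine carrier, which links the matrix to polyamine and urea cycle metabolites. Control libraries read 10.7, 8.58 and 9.26 CPM without and 13.9, 14.9, 16.8, 13.5 and 9.25 CPM with stimulation, and the fifth stimulated library lay among the non-stimulated ones. The cKO libraries read 10.3, 6.92 and 9.53 and 15.3, 13, 9.7 and 14.4 CPM, also with 1 stimulated library inside the non-stimulated range. Log2 changes were 0.53 ± 0.19 (edgeR adjusted p = 0.025) and 0.56 ± 0.19 (edgeR adjusted p = 0.0225). The control call was lost without the second or the third non-stimulated or the third stimulated control library (adjusted p 0.0988, 0.0675 and 0.0552), and the cKO call without the second non-stimulated or first stimulated cKO library (adjusted p 0.119 and 0.0626).

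Slc25a13 and Slc25a12 encode the aspartate/glutamate carriers citrin and aralar, which export aspartate from mitochondria as part of the malate-aspartate shuttle. The scarcer of them, Slc25a13, was called higher. It read 13, 15.2 and 14.5 CPM in non-stimulated and 21.1, 16.6, 18.3, 17.8 and 16.5 CPM in stimulated control cells. In cKO cells it read 14.4, 12.2 and 13.5 and 18.9, 15.5, 16.6 and 19.5 CPM, and neither genotype's groups overlapped. Log2 changes were 0.34 ± 0.11 (edgeR adjusted p = 0.0182) and 0.40 ± 0.12 (edgeR adjusted p = 0.00923), the former lost without the first non-stimulated control library (0.29, edgeR adjusted p = 0.0916). Slc25a12 read 110, 120 and 99.6 CPM before and 100, 96.1, 103, 94.8 and 81.2 CPM after stimulation of control cells. Its cKO libraries read 136, 112 and 104 and 110, 92.3, 86.4 and 101 CPM. Its log2 changes of -0.21 ± 0.11 and -0.27 ± 0.11 did not pass (edgeR adjusted p = 0.115 and 0.0507). In cKO cells the fall passed when the first stimulated library (-0.33, edgeR adjusted p = 0.0221), the third non-stimulated cKO library (-0.34, edgeR adjusted p = 0.0283) or the fifth stimulated control library (-0.27, edgeR adjusted p = 0.0414) was left out. The fall in cKO cells also passed with limma-voom (limma-voom adjusted p = 0.0114). With edgeR it passed on library totals alone, with a 1 CPM filter and with either replicate block (edgeR adjusted p = 0.0238, 0.0417, 0.0375 and 0.0332).

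Slc25a20 imports acylcarnitines for fatty acid oxidation. Control libraries read 25.8, 22.4 and 24.3 CPM before and 26.1, 27.7, 22.3, 25.4 and 27 CPM after stimulation, and the change was not called (log2 0.09 ± 0.11, edgeR adjusted p = 0.535). The cKO libraries read 19, 17.5 and 24.1 and 25.9, 24.6, 29.5 and 24.6 CPM, without overlap, and the change was called (log2 0.37 ± 0.12, edgeR adjusted p = 0.0132). The non-stimulated cKO libraries 1 and 2 were the lowest of all 15, and the call was lost without either (edgeR adjusted p = 0.0571 and 0.0791). Slc25a44 carries branched-chain amino acids. It read 17.3, 17.5 and 22.1 CPM before and 17.6, 18.1, 15, 17.2 and 17.5 CPM after stimulation in control cells, and 15, 18 and 16.9 and 18.5, 17.5, 17.2 and 18.4 CPM in cKO cells. Its ranges overlapped in both genotypes. The glycine carrier Slc25a38 was not called either. Slc25a29, a carrier of basic amino acids, had at most 1.12 CPM in any library, and its call in cKO cells (log2 0.90 ± 0.36, edgeR adjusted p = 0.0442) was lost in 16 of 28 alternatives, among them each of 7 left-out libraries.

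Among carriers of iron and glutathione, 1 gene of each pair of homologues was called higher. These are 2 of 4 tested members in each genotype (50%), with 0 lower. Of all genes 25.4% were higher in control and 26.7% in cKO cells, and 50.6% and 53.8% were called in either direction. Slc25a37 and Slc25a28 encode mitoferrins 1 and 2, the iron importers that feed heme and iron-sulfur cluster synthesis; mitoferrin 1 is best known from red cell precursors. Slc25a37 read 39.8, 39.3 and 45.1 CPM in non-stimulated and 72.6, 62.6, 60.0, 69.8 and 70.9 CPM in stimulated control cells. Among cKO libraries the values were 43.1, 37.8 and 34.5 and 59.1, 67.7, 61.2 and 74.7 CPM. All stimulated libraries exceeded all non-stimulated ones, by 1.62-fold in control (log2 0.70 ± 0.10, edgeR adjusted p = 2.23e-05) and 1.71-fold in cKO cells (log2 0.77 ± 0.11, edgeR adjusted p = 1.12e-05). The erythroid markers stayed at or near 0 in the same libraries. Slc25a28 read 23.1, 22.4 and 21.5 CPM before and 22.3, 22.5, 25.3, 22.6 and 19.5 CPM after stimulation of control cells, and 25.2, 22.1 and 21.6 and 22.6, 19.3, 18.4 and 21 CPM in cKO cells. Its log2 changes were 0.01 ± 0.10 and -0.18 ± 0.10 and were not called.

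Slc25a40 and Slc25a39 encode carriers that bring glutathione, the main cellular thiol, into mitochondria. Slc25a40 read 105, 83.9 and 99 CPM in non-stimulated and 133, 159, 133, 159 and 155 CPM in stimulated control cells. Its cKO libraries read 112, 106 and 85.2 and 125, 159, 130 and 152 CPM. Neither genotype's groups overlapped, and the log2 changes were 0.63 ± 0.11 (edgeR adjusted p = 0.000189) and 0.49 ± 0.12 (edgeR adjusted p = 0.00216). Slc25a39 read 41.9, 41 and 48.4 CPM before and 58, 51.1, 48.1, 40.9 and 43 CPM after stimulation of control cells. It read 40.8, 44.1 and 36.8 and 63.1, 46.7, 40.5 and 49.5 CPM in cKO cells. Its ranges overlapped in both genotypes, and the changes of 0.14 ± 0.13 and 0.30 ± 0.14 were not called (edgeR adjusted p = 0.409 and 0.077); without the third stimulated cKO library the latter was 0.40 and was called (edgeR adjusted p = 0.0233).

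The remaining members lie in the outer membrane or have no substrate assigned in the grouping used here. Slc25a46, an outer membrane protein of mitochondrial dynamics, rose from 75.2 ± 6.58 to 89.9 ± 5.19 CPM in control cells, a log2 change of 0.26 ± 0.08 (edgeR adjusted p = 0.0123). That call was lost without the second non-stimulated control library (0.19, edgeR adjusted p = 0.0902). Slc25a46 overlaps the protein-coding gene B930094E09Rik on the other strand. Slc25a45 fell without overlap. Control libraries read 19.3, 21 and 21.6 CPM before and 7.23, 7.59, 7.3, 6.19 and 7.63 CPM after stimulation. The cKO libraries read 18.9, 21.5 and 17.9 and 7.58, 7.67, 8.58 and 8.5 CPM. The falls were 2.87-fold (log2 -1.52 ± 0.11, edgeR adjusted p = 3.98e-09) and 2.41-fold (log2 -1.27 ± 0.11, edgeR adjusted p = 6.89e-08), and the control value had the smallest p of the family. Slc25a53 read 6.74, 5.27 and 7.66 CPM before and 4.1, 4.35, 3.5, 4.46 and 4.57 CPM after stimulation of control cells, and 7.53, 7.5 and 7.17 and 4.57, 5.25, 5.18 and 5.43 CPM in cKO cells. Its log2 changes were -0.65 ± 0.15 (edgeR adjusted p = 0.00129) and -0.53 ± 0.15 (edgeR adjusted p = 0.00668). It overlaps Zcchc18 on the other strand. Slc25a35 and Slc25a47 were not called in either genotype.

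Some genes on the marker lists of other cell types, chiefly Adgre1, Klrb1c and Pecam1, were lower after stimulation too, beside the members that fell. The summed level of 5 myeloid markers was 10.4 to 20.1 CPM in non-stimulated and 0.484 to 2.24 CPM in stimulated libraries, mostly Adgre1, with Lyz2 at 0 in every library. That of 3 natural killer cell markers was 3.10 to 18.7 CPM and 0.50 to 2.49 CPM, mostly Klrb1c. That of 4 endothelial markers was 165 to 197 CPM and 44.4 to 77.2 CPM, nearly all Pecam1, with Tie1 at 0 and Cdh5 and Kdr at most 0.181 CPM. Those of 2 CD8 T cell and 4 B cell markers were 5.83 to 28.8 CPM and at most 4.95 CPM over all libraries. The part of other cells in the falls of Slc25a23, Slc25a24, Slc25a45, Slc25a10 and Slc25a53 was not tested.

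**Figure D3:**
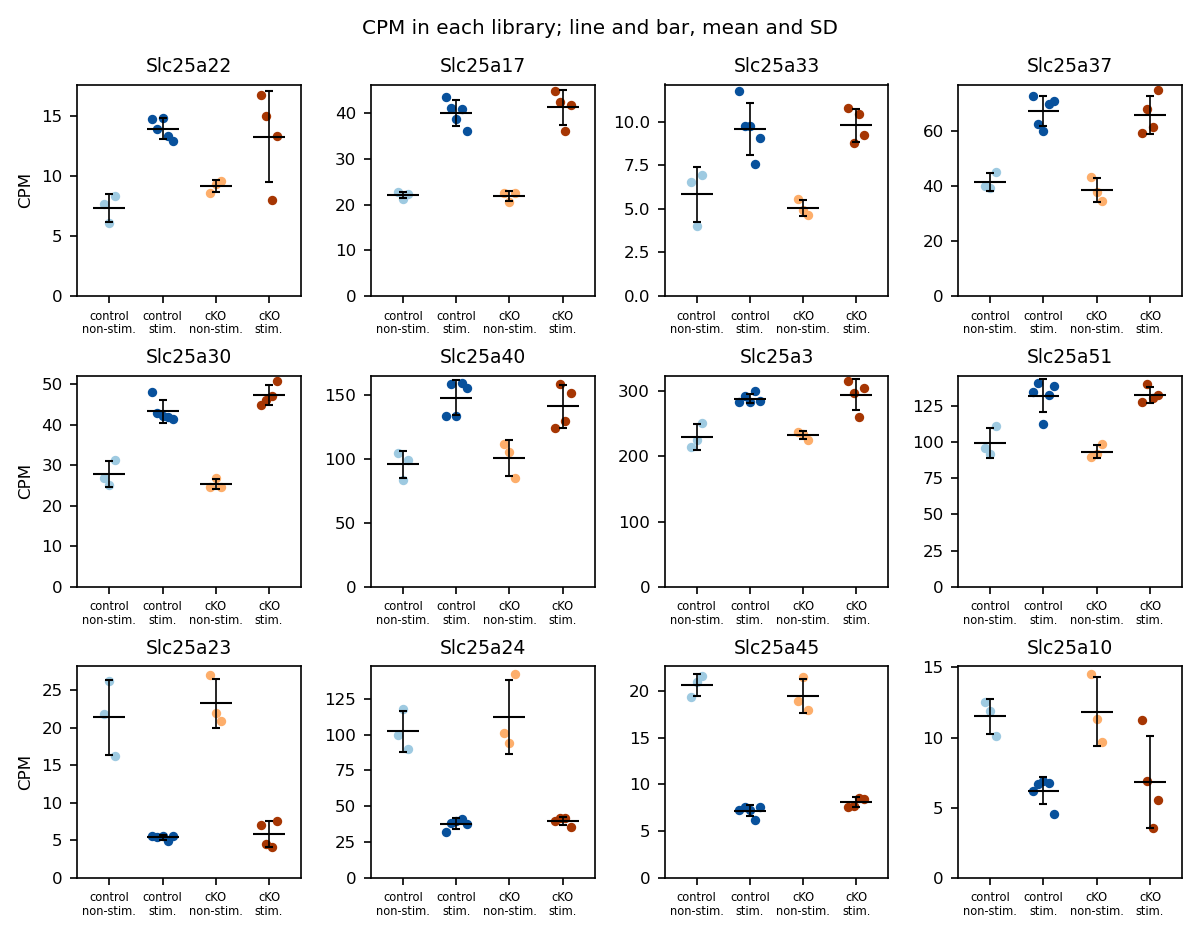
CPM in each library for 12 called members, with the group mean and SD; axes start at 0. The 8 upper panels show members that were higher after stimulation and the bottom row 4 that were lower; of these 12, only Slc25a22 and Slc25a10 in cKO cells have overlapping groups.

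Because 2 homologues in the same library share its depth and scaling, the ratio of their counts was compared between states. The test was an exact permutation test of the log2 ratio, two-sided, with libraries exchanged within each genotype (1960 arrangements, smallest possible p 0.00051) and Benjamini-Hochberg adjustment over the 8 ratios examined. These ratios were added after the values of the members had been seen, so their p-values are not evidence apart from the calls above. The ratios among Slc25a23, Slc25a24 and Slc25a25 also depend on one another. The log2 ratio of Slc25a37 to Slc25a28 was 0.78, 0.81 and 1.07 in non-stimulated and 1.70, 1.47, 1.25, 1.62 and 1.86 in stimulated control libraries. It was 0.77, 0.78 and 0.68 and 1.39, 1.81, 1.73 and 1.83 in cKO libraries. Every stimulated ratio exceeded every non-stimulated one, with mean differences of 0.69 in control and 0.95 in cKO cells. For Slc25a13 over Slc25a12 the control ratios were -3.09, -2.98 and -2.78 before and -2.25, -2.53, -2.50, -2.41 and -2.30 after stimulation. The differences were 0.55 in control and 0.66 in cKO cells, so the RNA of citrin came nearer to that of aralar, which stayed the more abundant by TPM in every library. For Slc25a33 over Slc25a36 they were 0.84 and 1.09. These 3 ratios reached the smallest possible p (exact permutation p = 0.00051, adjusted p = 0.000816), and kept adjusted p-values of 0.00653 or less with any library left out or with TPM in place of counts.

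The 3 calcium-regulated carriers changed relative to each other. The log2 ratio of Slc25a25 to Slc25a23 was -0.27, -0.47 and -0.19 in non-stimulated and 1.83, 1.67, 1.88, 1.90 and 1.61 in stimulated control libraries. In cKO cells it was -0.57, -0.58 and -0.08 and 1.52, 2.10, 2.07 and 1.17. By TPM, which compares levels, Slc25a24 was the highest of the 3 in both states of control cells, at 29.2 ± 5.69 and 11.9 ± 1.67. Slc25a25 stood at 5.97 ± 1.3 and 8.35 ± 0.679 TPM and Slc25a23 at 6.38 ± 1.75 and 1.95 ± 0.442 TPM, so these overlapped without stimulation and were apart after it. The mean differences were 2.09 and 2.13 for that ratio and 1.57 in each genotype for Slc25a25 over Slc25a24 (exact permutation p = 0.00051 for both, adjusted p = 0.000816). Slc25a23 over Slc25a24 differed by -0.52 and -0.56 (exact permutation p = 0.0158, adjusted p = 0.0211), which did not pass without the first or the second non-stimulated cKO library (exact permutation adjusted p = 0.0776 and 0.0789). Slc25a40 over Slc25a39 differed by 0.50 and 0.20 (exact permutation p = 0.0357, adjusted p = 0.0408), and that did not pass in 12 of 16 alternatives, TPM ratios included (exact permutation adjusted p up to 0.234). Slc25a5 over Slc25a4 differed by 0.05 and 0.22 (exact permutation p = 0.231, adjusted p = 0.231).

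**Figure D4:**
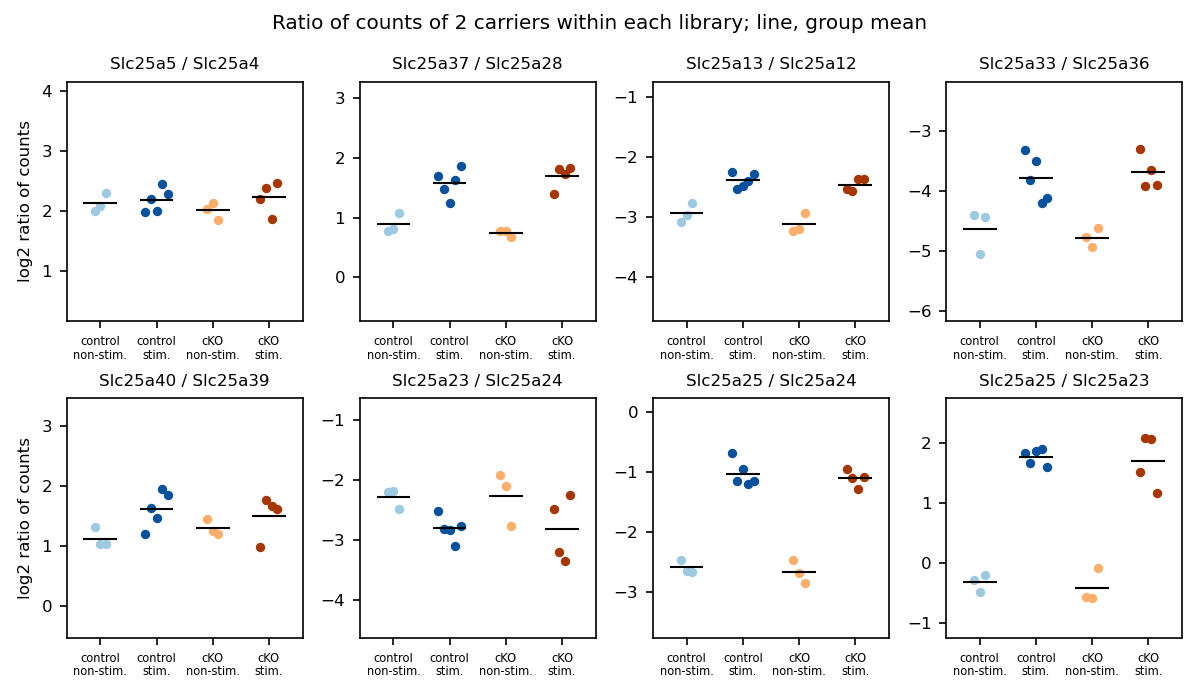
Log2 ratio of the estimated counts of 2 homologous carriers in each library, by group, with the group mean as a line. Stimulated and non-stimulated points are apart in both genotypes for Slc25a37 over Slc25a28, Slc25a13 over Slc25a12, Slc25a33 over Slc25a36, and Slc25a25 over Slc25a24 or Slc25a23, and overlap for Slc25a5 over Slc25a4.

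The DNA just upstream of these genes can be compared too. RefSeq windows from 250 bases before to 50 after the start, in build GRCm38.p6, exist for 36 of the 47 members. They were searched on both strands for the E-box CACGTG, a site of the MYC and MAX factors, for the AP-1 site TGANTCA (N, any base) and for the NFAT core TGGAAA. The 200 bases before the start are shown for the pyrimidine nucleotide, aspartate/glutamate and glutathione carrier pairs and for the falling Slc25a24. In each of these pairs 1 homologue rose and the other did not pass in the main fit. Capitals mark the E-box, and in Slc25a13 an AP-1 match whose last 2 bases are the first 2 of the E-box. Each is given 5′ to 3′ on the strand of the gene.
Slc25a33, chr4:149774268-149774467, minus strand: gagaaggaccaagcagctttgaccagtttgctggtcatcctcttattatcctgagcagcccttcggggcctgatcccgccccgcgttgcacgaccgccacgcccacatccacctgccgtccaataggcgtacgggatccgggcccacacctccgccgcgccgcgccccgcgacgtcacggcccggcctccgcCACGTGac
Slc25a36, chr9:97111042-97111241, minus strand: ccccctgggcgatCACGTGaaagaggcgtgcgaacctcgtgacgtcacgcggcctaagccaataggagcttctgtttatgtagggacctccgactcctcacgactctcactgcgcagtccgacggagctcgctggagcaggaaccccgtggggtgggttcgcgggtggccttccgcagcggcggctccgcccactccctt
Slc25a13, chr6:6217174-6217373, minus strand: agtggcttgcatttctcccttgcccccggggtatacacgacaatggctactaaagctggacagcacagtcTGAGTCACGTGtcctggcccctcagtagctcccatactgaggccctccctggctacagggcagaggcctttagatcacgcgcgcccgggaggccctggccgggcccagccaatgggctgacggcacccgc
Slc25a12, chr2:71367756-71367955, minus strand: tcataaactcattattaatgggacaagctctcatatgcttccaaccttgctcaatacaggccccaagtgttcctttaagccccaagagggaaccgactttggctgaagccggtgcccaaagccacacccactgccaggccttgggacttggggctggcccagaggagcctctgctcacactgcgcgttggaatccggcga
Slc25a40, chr5:8422638-8422837, plus strand: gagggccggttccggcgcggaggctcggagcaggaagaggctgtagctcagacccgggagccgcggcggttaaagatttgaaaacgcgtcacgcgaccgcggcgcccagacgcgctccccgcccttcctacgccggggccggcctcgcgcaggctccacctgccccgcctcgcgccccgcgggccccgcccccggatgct
Slc25a39, chr11:102407518-102407717, minus strand: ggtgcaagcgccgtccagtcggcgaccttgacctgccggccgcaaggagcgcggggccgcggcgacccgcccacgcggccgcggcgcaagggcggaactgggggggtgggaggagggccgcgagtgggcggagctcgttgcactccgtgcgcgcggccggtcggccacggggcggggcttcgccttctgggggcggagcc
Slc25a24, chr3:109122949-109123148, plus strand: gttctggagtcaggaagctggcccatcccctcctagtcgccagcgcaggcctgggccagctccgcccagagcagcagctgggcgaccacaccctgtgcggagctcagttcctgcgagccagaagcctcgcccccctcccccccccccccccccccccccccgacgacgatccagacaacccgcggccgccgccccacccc

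The E-box of Slc25a33 begins 8 bases before the start, that of Slc25a36 187 bases and that of Slc25a13 125 bases before it. Windows of Slc25a12, Slc25a40, Slc25a39 and Slc25a24 held none of the 3 motifs. An E-box lay in a window of 7 of the 36 members, beside 8.09% of 27025 genes with a window. Of the 13 members higher in both genotypes 8 had a window, and 3 of these held it (Slc25a33, Slc25a15 and Slc25a13). Of the 5 lower in both, all had a window and 0 held it; of the 15 called in neither, 12 had a window and 2 held it. The AP-1 site lay in 2 of 36 members (8.97% of genes) and the NFAT core in 6 of 36 (23.9% of genes). A match is a description of letters and not a bound site.

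No carrier was called between genotypes. In non-stimulated cells Asb2 itself was not called, so a lack of calls there does not show a lack of change. Between non-stimulated cKO and control cells 0 of 38 tested members were called (0% of all genes), and between stimulated cells 0 (0.0064% of all genes, which is Asb2 alone). For the interaction, the difference between the 2 stimulation responses, it was also 0 (0% of all genes). At an unadjusted p under 0.05 edgeR had 0 members in each of these 3 comparisons, beside 402, 283 and 605 of all 15619 genes, in that order. DESeq2 called 0 members in each, beside 4, 5 and 2 of all genes. Log2 differences ran from -0.26 to 0.36 in non-stimulated cells, from -0.23 to 0.33 in stimulated cells and from -0.58 to 0.35 for the interaction, none reaching 1.5-fold. The libraries of the genotypes did not overlap for 1 of 38 members in non-stimulated cells, Slc25a22 (7.86% of all genes), and for 2 in stimulated cells, Slc25a53 and Slc25a16 (0.659% of all genes).

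The members nearest to a difference are given as values. In non-stimulated cells these were Slc25a20, at -0.26 ± 0.12 (log2 cKO minus control, unadjusted p = 0.0556 by edgeR, adjusted p = 1), and Slc25a44, at -0.19 ± 0.12 (edgeR unadjusted p = 0.126). In stimulated cells they were Slc25a53, at 0.28 ± 0.14 (edgeR unadjusted p = 0.0552), and Slc25a16, at 0.18 ± 0.10 (edgeR unadjusted p = 0.0763). Slc25a16, a carrier tied to coenzyme A uptake, read 13.4, 15, 14.2, 12.1 and 13.5 CPM in stimulated control and 16, 15.6, 15.1 and 15.1 CPM in stimulated cKO libraries, just apart. Without stimulation it read 16.6, 13.3 and 16.4 CPM in control and 17.3, 16.2 and 15.1 CPM in cKO cells, which overlap. For the interaction Slc25a30 came first at 0.26 ± 0.13 (edgeR unadjusted p = 0.0627, adjusted p = 0.997) and Slc25a20 second at 0.28 ± 0.16 (edgeR unadjusted p = 0.0994). On log2(TPM + 0.1) the sign for Slc25a30 turned, to -0.09. Asb2 RNA was still detected in every cKO library, and which part of the gene is removed is not given in the sources used here.

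Genes around the carriers give the setting. Of the family members under other symbols, 3 of 5 were tested: Ucp2, an uncoupling protein abundant in lymphocytes, fell from 747 ± 45.9 to 327 ± 36.7 CPM in control cells (log2 -1.19 ± 0.13, edgeR adjusted p = 1.02e-06) and by 1.26 on the log2 scale in cKO cells. The outer membrane protein Mtch1 fell too (log2 -0.77 ± 0.14), while Mtch2 rose in control cells (log2 0.30 ± 0.09, edgeR adjusted p = 0.00665) and did not pass in cKO cells (edgeR adjusted p = 0.113).

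Other routes across the mitochondrial membranes were mixed. Of 18 other inner membrane transporters, 6 were called higher and 3 lower in control cells and 8 and 3 in cKO cells. These are 50% and 61.1% of the list, beside 50.6% and 53.8% of all genes. By direction, the shares of all genes were 25.4% higher and 25.2% lower in control and 26.7% and 27.1% in cKO cells. The serine transporter Sfxn1 rose (log2 0.47 ± 0.09 in control cells), while Sfxn3 and the sodium-calcium exchanger Slc8b1 fell (-0.74 ± 0.11 and -0.87 ± 0.17). Of the 3 outer membrane channels Vdac3 and Vdac2 rose in both genotypes (log2 0.52 ± 0.07 and 0.22 ± 0.08 in control cells) and Vdac1 did not pass. The machinery that brings carriers to the inner membrane had 8 of 12 genes higher and 0 lower in each genotype. Its members with the smallest p were the small chaperones Timm8a1 (log2 1.12 ± 0.12) and Timm9 (0.90 ± 0.12) and the carrier receptor Tomm70a (0.61 ± 0.07).

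Among genes that make or use what the carriers move, all that were called rose, apart from 2 genes of heme and iron-sulfur cluster synthesis. In a list of one-carbon metabolism, of mitochondrial enzymes and the cytosolic Shmt1 and Mthfd1, 9 of 10 genes were higher and 0 lower in control cells and 8 and 0 in cKO cells. Mthfd2 rose by 0.85 ± 0.10 and the cytosolic Mthfd1 by 1.29 ± 0.16 on the log2 scale in control cells, and Gldc from 0.0288 ± 0.050 to 0.939 ± 0.288 CPM. Of 10 genes of the malate-aspartate shuttle and citrate use, 5 were higher and 0 lower in control cells and 4 and 0 in cKO cells, led by Got1 (log2 1.54 ± 0.21), Mdh1 (1.30 ± 0.20) and Mdh2 (0.50 ± 0.12). Of 10 genes of heme and iron-sulfur cluster synthesis, which the mitoferrins supply, 8 were higher and 2 lower in control cells and 7 and 2 in cKO cells. The transferrin receptor Tfrc rose by 1.49 ± 0.10 and Alas1 by 0.86 ± 0.09 on the log2 scale, while Fech, which inserts iron into heme, fell (-0.67 ± 0.08). Of 11 ATP synthase subunits, 4 were higher and 0 lower in each genotype, among them Atp5g1 (log2 0.92 ± 0.13), Atp5b (0.63 ± 0.11) and Atp5a1 (0.30 ± 0.10). These lists were chosen with earlier results of these data known. All their counts stand beside 25.4% of all genes higher and 25.2% lower in control cells, and 26.7% and 27.1% in cKO cells.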

How the data were processed

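RNA was sequenced from 15 Th2 cell libraries made, per the labels' protocols, with an Illumina stranded total RNA kit and Ribo-Zero Plus depletion. The authors deposited an estimated count per gene and library, not scaled between libraries, and a TPM value scaled for transcript length within each library; 25.9% of the counts above 0 were not whole. The submitters' processing notes name Salmon 1.10.1, STAR 2.7.9a, cutadapt 3.4 and the build GRCm39; the role of each, the annotation release and the strand setting are not given in the sources used here. Depth was 17.1 to 24.2 M estimated counts per library, so changes of members with about 10 counts or fewer in a library rest on few reads.

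Counts were rounded to whole numbers. In R 4.3.3, edgeR 4.0.16 kept genes with filterByExpr, which left at least 99.9% of the counts of each library, scaled them by the trimmed mean of M-values, and fitted 1 mean per group to all 15 libraries with a robust quasi-likelihood model. Tests were two-sided with Benjamini-Hochberg adjustment over 15619 genes, and called genes have an adjusted p under 0.05. SE is the log2 fold change divided by the square root of F. The scripts were tested on simulated data. CPM uses the scaled library sizes, and levels of different genes are compared in TPM alone; the ratios of counts of 2 genes are compared only between groups.

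Members and gene lists were chosen with earlier results of these data known. Values of 1 tested member are not reported here, though it stands in the counts. Values in every library are given for the 8 called members with the largest rise and the 8 with the largest fall in control cells, of which 5 existed, among members reaching 5 CPM in either group, for the 2 members with the smallest p in each comparison that called none, and for close homologues. From each related list the 3 genes with the smallest p are named. Slc25a3, the other called members and the values beside them, the overlapping genes, the markers and the pair ratios were chosen after values were seen. Whether equal replicate numbers mark paired libraries is not stated in the labels, and the main fit did not pair them. Of 19 same-numbered pairs, within and between genotypes, 3 had a correlation of deviations from the group means over 0.1 (range -0.20 to 0.18). With so few libraries per group, these correlations cannot decide whether libraries are paired. Alternatives were other scaling, DESeq2 1.42.0, limma 3.58.1 (voom, or log2 of TPM plus 0.1 or 1), other filters, only the groups compared, no robust dispersion, replicate blocks, a table without histone, mitochondrial and small RNA genes, and leaving out each library. Overlaps with other genes come from GENCODE M21 and upstream sequences from RefSeq on GRCm38.p6, another build than the counts use; no coordinates were carried between builds.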

Additional observations from a re-analysis of the deposited data

Results flagged for a closer look

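In groups of 4 or 5 libraries, 6 of 76 combinations of a tested member and a group held a library set far from the rest by Dixon's criterion at 95%, which chance alone meets in about 1 of 20. All 6 lay among stimulated control cells. Slc25a23 was lowest in the fourth library, at 4.85 CPM, where the other 4 held 5.47 to 5.60 CPM. Slc25a26, the S-adenosylmethionine carrier, was lowest in the same library at 1.95 CPM, the next being 2.63 CPM. Slc25a45 was lowest there too, at 6.19 CPM, the next being 7.23 CPM. Slc25a44 was lowest in the third library at 15 CPM, the next being 17.2 CPM, and Slc25a35 was lowest in the same library at 5.30 CPM, the next being 6.48 CPM. Slc25a30 was highest in the first library at 48.1 CPM, the next being 42.9 CPM. For Slc25a23, Slc25a30 and Slc25a45 the set-apart library still lay on the stimulated side of every non-stimulated control library.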

How the results depend on the processing

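Of 41 calls of single members after stimulation, 22 stood in all 28 alternatives (14 in control and 8 in cKO cells), 19 were lost in at least 1, and none changed sign. On log2(TPM + 0.1) the count called lower in control cells was 3 in place of 6, and the count called higher in cKO cells was 5 in place of 15, also 5 on log2(TPM + 1); the cause was not tested. With TPM plus 0.1 the median log2 change of all genes moved to 0.14 in control and -0.09 in cKO cells, to 0.15 between non-stimulated genotypes and to -0.21 for the interaction. Leaving out 1 library gave 13 to 15 members higher and 5 to 6 lower in control cells, 12 to 18 higher and 4 to 6 lower in cKO cells, and 0 between genotypes in either state and for the interaction. After stimulation, signs were followed only for members called in either genotype and for the close homologues. In each other comparison they were followed for the 2 members with the smallest p. Among these results, the sign turned only where there was no call. With limma-voom it turned for Slc25a4 (-0.067) and Slc25a28 (-0.0069) in control cells. On TPM it turned for Slc25a36 in control cells (0.0033 with 0.1 and 0.0038 with 1) and for Slc25a30 in the interaction (-0.088 and -0.078). Leaving out 1 library, Slc25a4 ranged from -0.073 to 0.14 and Slc25a28 from -0.020 to 0.056 in control cells, and Slc25a25 from -0.028 to 0.18 in cKO cells. With the replicate number as a block, 20 members were called in each genotype, and with a block within genotype 19 and 18, against 21 and 20 without it (the block within genotype lost, among others, Slc25a13 in cKO cells); both blocks called 0 members in the other comparisons they can give. The fit of only the groups compared gives no interaction and the block within genotype gives no comparison of genotypes, so those were not run.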
